A study of Mus musculus with 7 samples.

Results

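Cxcl13, Cxcr5, Ccl19, Ccl21a, Ccr7, Lta, Ltb and Tnfrsf13c were examined in islet RNA as 8 genes taken by symbol out of 25793 gene symbols on the array. Islets of NOD-Rag1-/- mice were measured as 3 pools and islets of NOD.ALRc8(D8Mit293-D8Mit137) mice as 4 pools. NOD-Rag1-/- mice are NOD mice with a targeted deletion of Rag1 (Rag1tm1Mom), and they lack mature T and B cells. NOD.ALRc8(D8Mit293-D8Mit137) mice, labelled Idd22, have intact Rag1 and carry, on the NOD background, the stretch of ALR Chr 8 that lies between the markers in their name. Neither strain was treated. Every pool came from 2 mice of 10 to 12 weeks and held about 200 islets, and 1 Affymetrix Mouse Gene 2.0 ST array was hybridised per pool. The strains differ in Rag1 and in the segment at the same time, so the effects of the 2 loci cannot be told apart in this design. None of the 8 genes is placed on Chr 8 by the array's annotation. They are on Chr 4 (Ccl19, Ccl21a), Chr 5 (Cxcl13), Chr 9 (Cxcr5), Chr 11 (Ccr7), Chr 15 (Tnfrsf13c) and Chr 17 (Lta, Ltb).

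These genes belong to the circuit that builds and maintains lymph nodes, spleen follicles and the lymphoid aggregates that can form in inflamed tissue. Lymphotoxin made by lymphocytes and lymphoid tissue inducer cells binds the lymphotoxin beta receptor on stromal cells, which then secrete homeostatic chemokines by way of the alternative NF-kappaB pathway. CXCL13 draws cells with CXCR5, mainly B cells and follicular helper T cells, and CCL19 and CCL21 draw naive T cells and mature dendritic cells through CCR7. In NOD mice such aggregates are known from insulitis, the infiltration of islets by leukocytes. Tnfrsf13c encodes the BAFF receptor of B cells and is neither a chemokine nor a lymphotoxin gene.

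The sequence upstream of the transcription start is shown for Cxcl13, Ccl19 and Ltb. Their brightest probe sets lay apart between the strains and were highest in congenic replicate 2. For Ccl19 the window is that of the RefSeq gene of this name. The probe set placed there (17424452) did not lie apart, and it is annotated to another transcript than the other Ccl19 sets. The brightest set lies at other copies (Gm21104 and Gm2457) whose windows are not shown. The 250 bases of each are from RefSeq for GRCm38.p6, of the C57BL/6J strain and not of NOD, and 6 of the 8 genes matched an entry (all but Cxcr5 and Ccr7). Capitals mark matches on either strand to 4 motifs, chosen after these sequences had been read. The motif GGAGATTT is the core of a site known to be bound by the NF-kappaB pair RelB and p52 at mouse Cxcl13, GGGACTTTC is all but the last base of a classical NF-kappaB site, GAAANNGAA is the start of the core of the interferon-stimulated response element and TATAAA is the TATA box. No 2 of the motifs overlapped in these windows.
Cxcl13 (chr5:95956689-95956938, plus strand): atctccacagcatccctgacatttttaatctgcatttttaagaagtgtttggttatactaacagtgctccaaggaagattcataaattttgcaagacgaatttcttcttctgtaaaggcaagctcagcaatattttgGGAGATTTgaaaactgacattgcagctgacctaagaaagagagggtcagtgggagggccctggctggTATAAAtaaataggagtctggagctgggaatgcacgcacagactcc
Ccl19 (chr4:42756366-42756615, minus strand): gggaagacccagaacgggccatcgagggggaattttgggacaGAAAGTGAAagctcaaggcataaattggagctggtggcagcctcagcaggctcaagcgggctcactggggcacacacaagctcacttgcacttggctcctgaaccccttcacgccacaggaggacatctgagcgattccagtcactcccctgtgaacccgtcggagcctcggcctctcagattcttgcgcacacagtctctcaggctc
Ltb (chr17:35194257-35194506, plus strand): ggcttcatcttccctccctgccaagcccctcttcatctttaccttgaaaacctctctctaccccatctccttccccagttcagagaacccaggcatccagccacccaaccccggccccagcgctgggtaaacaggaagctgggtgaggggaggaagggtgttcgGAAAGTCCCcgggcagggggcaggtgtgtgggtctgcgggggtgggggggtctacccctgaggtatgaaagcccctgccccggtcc
Cxcl13 had GGAGATTT from 113 to 106 bases before its start, a motif held by 0.962% of 32851 windows of the same length, and TATAAA from 46 to 41 bases (12.4% of windows). Ccl19 had GAAANNGAA from 208 to 200 bases (7.13% of windows). Ltb had the reverse complement of GGGACTTTC from 86 to 78 bases (0.289% of windows). Among the other 3 windows, that of Lta held TATAAA from 167 to 162 bases and those of Ccl21a and Tnfrsf13c held none of the 4. The RefSeq gene Lta reaches to base 35205578, so much of its window (35205352 to 35205601), with this match, lies inside the gene. A match is a run of letters and was not tested as a binding site.

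Facts of the whole series bear on all values that follow. The islet hormone genes Gcg, Ins2 and Iapp were bright in all 7 pools, with log2 values from 10.34 to 12.95. Correlations between pools over probe sets were 0.984 to 0.993 within NOD-Rag1-/-, 0.976 to 0.986 within the congenic strain and 0.965 to 0.981 between strains. The lower quartile of the array was above 2.6 in NOD-Rag1-/- replicate 1 and congenic replicates 2 to 4 and below it in NOD-Rag1-/- replicates 2 and 3 and congenic replicate 1, so the difference of each of the 8 genes is also given within these sets of 4 and 3 arrays, without a test. Xist was 2.56 in NOD-Rag1-/- replicate 1 and 9.69 to 10.28 in the other pools, and Ddx3y was 6.25 against 1.99 to 2.08, values of a male pool and of female pools. No label gives sex, and in the set of 4 arrays the strain and this pool's sex cannot be told apart. Without it the log2 differences of the 8 genes were 3.23 for Cxcl13, 1.82 for Ccl19, 0.42 for Ccl21a, 1.22 for Cxcr5, 2.52 for Ccr7, 0.57 for Lta, 2.26 for Ltb and 1.15 for Tnfrsf13c. The p-values measure only the spread between these pools. The probe set of Rag1 had 3.63 to 4.21 in NOD-Rag1-/- and 3.25 to 3.87 in the congenic pools. Which part of the gene it reads is not given in the sources used here, so it checks nothing about genotype.

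All 8 genes had a higher mean in the congenic islets, and none passed an adjusted p of 0.05. Fold changes on the linear scale ran from 1.25 for Ccl21a to 8.74 for Cxcl13, and the median log2 difference of the 8 was 1.46, against 0.02 over all 34351 probe sets tested. By limma, 0 of the 8 had an adjusted p under 0.05, as had 0.157% of all probe sets, and 7 had an unadjusted p under 0.05 (7 also by the methods' t-test, with 0 after adjustment). At the threshold of the study's methods, a log2 difference over 0.5 in size with an unadjusted p of 0.05 or less, 6 of the 8 were higher, against 3.81% of all probe sets. These were Cxcl13, Ccl19, Cxcr5, Ccr7, Ltb and Tnfrsf13c. For Cxcl13, Ccl19, Ccl21a, Cxcr5, Ccr7 and Ltb, all 4 congenic values lay above all 3 NOD-Rag1-/- values, as they did for 4.43% of all probe sets (7.17% lay apart in either direction). In whole islets, fewer cells that express a gene and less of its RNA per cell cannot be told apart.

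**Figure D1:**
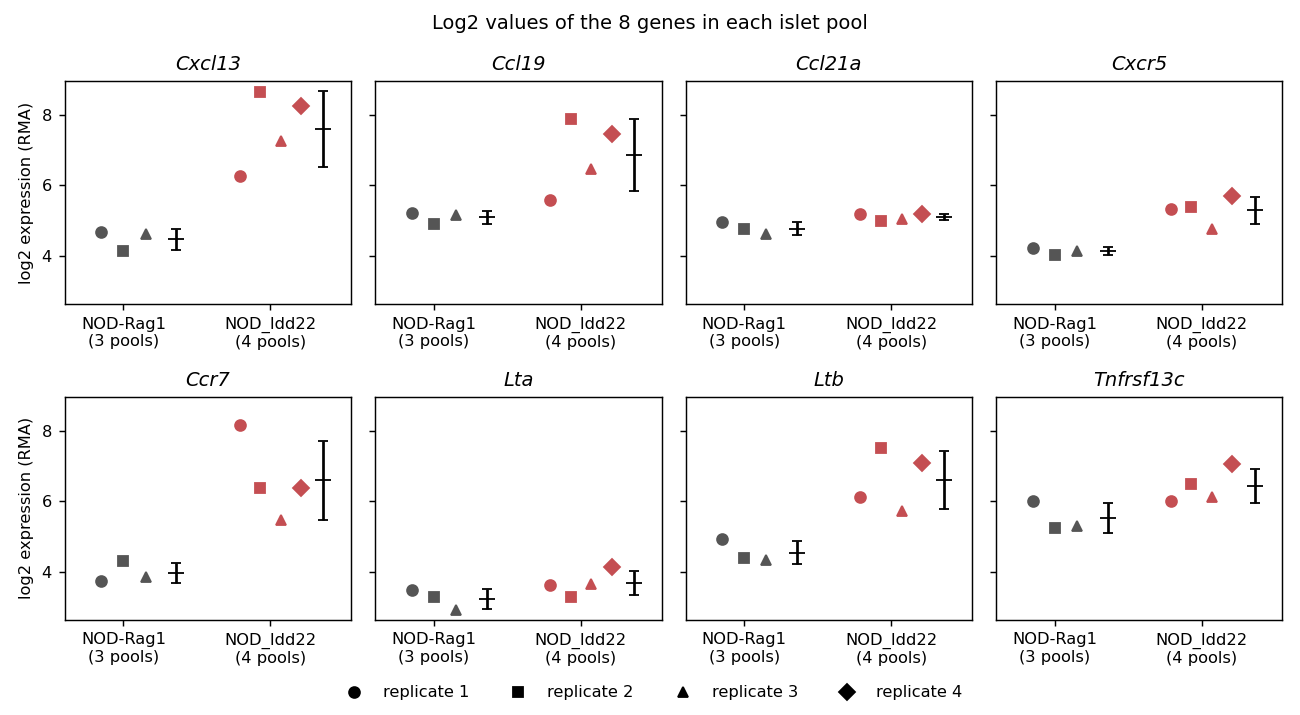
Log2 expression (RMA) of each gene by its brightest probe set, with 3 NOD-Rag1-/- pools in grey and 4 congenic pools (NOD_Idd22) in red. Symbols give the replicate number, and the bar at the right of each group is the mean with its SD. Cxcl13 and Ccr7 show the widest gap between the groups, and the groups overlap or touch for Lta and Tnfrsf13c.

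Cxcl13, the chemokine of B cell follicles, had the largest difference of the 8. Its probe set (17439367, Chr 5 from 95956926 to 95961068) read log2 values of 4.67, 4.13 and 4.61 in NOD-Rag1-/- replicates 1 to 3 and of 6.26, 8.64, 7.25 and 8.24 in congenic replicates 1 to 4. The lowest congenic pool stood 1.59 above the highest NOD-Rag1-/- pool, and congenic replicates 2 and 4 were the highest. The means were 4.47 ± 0.30 (SD, n = 3 pools) and 7.60 ± 1.07 (SD, n = 4 pools), a log2 difference of 3.13 (standard error 0.54, adjusted p = 0.118 from limma), or 8.74-fold with a 95% confidence interval of 3.60 to 21.2. Exact permutation of the pools (two-sided) gave p = 0.0571, where 0.0286 is the smallest that the 35 assignments of 7 pools allow. Without congenic replicate 1 the difference was 3.57 and passed the adjusted threshold (adjusted p = 0.0322 from limma). Within the sets of arrays it was 3.38 (4 arrays) and 1.89 (3 arrays).

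Cxcr5, the receptor of CXCL13 on B cells and follicular helper T cells, was also higher in every congenic pool, with a smaller spread. The probe set (17526310, Chr 9 from 44511787 to 44526421) read 4.23, 4.01 and 4.14 in NOD-Rag1-/- and 5.33, 5.38, 4.76 and 5.69 in congenic replicates 1 to 4. The gap between the groups was 0.53, and congenic replicate 3 was the lowest of its strain. The difference was 1.16 on the log2 scale (standard error 0.21, adjusted p = 0.129 from limma; exact permutation p = 0.0571), which is 2.24-fold with an interval of 1.60 to 3.14. Without congenic replicate 3 it was 1.34 and passed the adjusted threshold (adjusted p = 0.0140 from limma). It was 1.04 and 1.26 within the sets of 4 and 3 arrays.

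Ccr7, the receptor that leads naive T cells and mature dendritic cells to CCL19 and CCL21, differed from Cxcl13 in which congenic pool was highest. Its probe set (17268972, Chr 11 from 99144196 to 99155077) had log2 values of 3.75, 4.30 and 3.84 in NOD-Rag1-/- replicates 1 to 3 and of 8.15, 6.36, 5.47 and 6.36 in congenic replicates 1 to 4. Congenic replicate 1, the lowest congenic pool for Cxcl13, was the highest for Ccr7, and no pool of one strain reached the range of the other. The means of 3.96 ± 0.30 (SD, n = 3) and 6.59 ± 1.12 (SD, n = 4) gave a log2 difference of 2.63 (standard error 0.57, adjusted p = 0.205 from limma; exact permutation p = 0.0286, the smallest possible), or 6.18-fold (95% confidence interval 2.44 to 15.6). In the 2 sets of arrays it was 2.32 with 4 arrays and 4.08 with the 3 arrays whose only congenic pool is replicate 1. Without congenic replicate 1 it was 2.11, the lowest value when single pools were left out.

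Ccl19, a ligand of CCR7 made by stromal and dendritic cells, is represented by 11 probe sets, and the answer depended on which was read. The brightest (17413033, Chr 4 from 42131994 to 42134171) had log2 values of 5.21, 4.89 and 5.17 in NOD-Rag1-/- and 5.59, 7.86, 6.47 and 7.46 in congenic replicates 1 to 4. Congenic replicates 2 and 4 were high, as for Cxcl13, and replicate 1 stood 0.38 above the highest NOD-Rag1-/- pool. This was a log2 difference of 1.76 (standard error 0.51, adjusted p = 0.365 from limma; exact permutation p = 0.0571), 3.38-fold with an interval of 1.46 to 7.81. It was 2.06 within the set of 4 arrays and 0.56 within the set of 3.

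Of the 11 Ccl19 probe sets, 10 had differences of 1.34 to 2.37 with no overlap between the strains, and the other had -0.054. That one (17424452, Chr 4 from 42754525 to 42756577) is the only one placed at the RefSeq gene named Ccl19, where a long noncoding RNA (4930578G10Rik) is annotated as well. The array's annotation assigns this set to another transcript than the 10, so whether it reads Ccl19 mRNA cannot be told here. Its values were 3.01, 3.17 and 3.46 in NOD-Rag1-/- and 3.15, 2.88, 2.85 and 3.75 in the congenic pools, which overlap (standard error 0.24, adjusted p = 0.952 from limma; exact permutation p = 0.8). The other 7 on Chr 4 lie at copies that RefSeq names Gm12407, Ccl19-ps1, Ccl19-ps2, Gm21104, Gm2457, Gm2564 and LOC65957, all of them pseudogenes except Gm12407, and 3 are on unplaced contigs. The 11 sets held 8 distinct series of values, and 2 further sets repeated the brightest one exactly. A probe set of Gm12407 on a contig also repeated a Ccl19 set to the last digit. Nearly identical copies share sequence, so which copy gave the signal cannot be told apart here.

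Ccl21a, the other CCR7 ligand and a product of lymphatic endothelium and lymph node stroma, had small differences in its 9 probe sets, and the strains lay apart in 2 of them. The brightest (17434285, on an unplaced Chr 4 contig from 120655 to 121788) read 4.97, 4.75 and 4.60 in NOD-Rag1-/- and 5.19, 4.99, 5.05 and 5.17 in the congenic pools. The lowest congenic pool was 0.02 above NOD-Rag1-/- replicate 1, so the groups barely parted. The log2 difference was 0.33 (standard error 0.11, adjusted p = 0.448 from limma; exact permutation p = 0.0286), or 1.25-fold with an interval of 1.05 to 1.5. Over the 9 probe sets it was 0.32 to 0.41, and 0 of the 9 reached a log2 difference of 0.5. For the brightest it was 0.20 with quantile normalization and 0.21 with arrays centred on their medians, where the unadjusted p from limma was 0.0927 and 0.105, above 0.05. The probe set at the RefSeq gene Ccl21a (17424461, Chr 4 from 42772860 to 42773993) had 0.32, and others lie at Ccl21b, Ccl21d, Gm13304 and Gm10591. Within the sets of arrays the brightest had 0.11 with 4 arrays and 0.51 with 3.

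**Figure D2:**
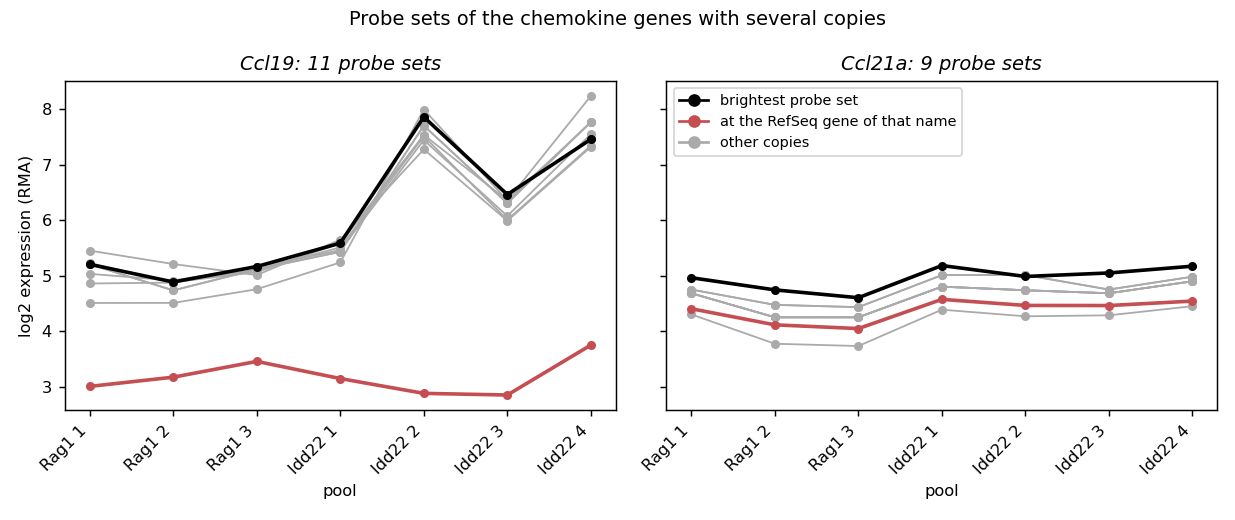
Log2 expression (RMA) over the 7 pools (Rag1, NOD-Rag1-/-; Idd22, congenic) for the 11 Ccl19 and 9 Ccl21a probe sets. Black marks the brightest set, red the set at the RefSeq gene of that name and grey the other copies. For Ccl19 the red line stays between 2.85 and 3.75 while the others climb in congenic replicates 2 to 4, and for Ccl21a all lines run together.

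Ltb, the membrane-bound lymphotoxin beta chain that anchors the heterotrimer, was higher in each congenic pool, and its neighbour Lta, the soluble alpha chain, was not set apart. Ltb (probe set 17337024, Chr 17 from 35194439 to 35196320) read 4.93, 4.37 and 4.33 in NOD-Rag1-/- and 6.13, 7.51, 5.72 and 7.07 in congenic replicates 1 to 4. Congenic replicates 2 and 4 were again the highest, and the groups were 0.80 apart. Its log2 difference was 2.06 (standard error 0.43, adjusted p = 0.195 from limma; exact permutation p = 0.0571), which is 4.18-fold with an interval of 2.06 to 8.48. Both sets of arrays gave close values, 1.84 with 4 arrays and 1.77 with 3.

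Lta (probe set 17344316, Chr 17 from 35203165 to 35205351) starts 6844 bases past the end of Ltb, with Tnf between them. Its values were 3.47, 3.29 and 2.92 in NOD-Rag1-/- and 3.64, 3.29, 3.64 and 4.12 in the congenic pools, and congenic replicate 2 had the same value as NOD-Rag1-/- replicate 2. The log2 difference of 0.45 (standard error 0.21, adjusted p = 0.562 from limma; exact permutation p = 0.171) corresponds to 1.36-fold with an interval of 0.961 to 1.93. Without congenic replicate 2 it was 0.57, which met the study's threshold, and without NOD-Rag1-/- replicate 3 or congenic replicate 4 it was 0.29 or 0.30, which did not. Tnf, the third cytokine of this locus, had log2 values of 4.38, 4.31 and 4.32 in NOD-Rag1-/- and 5.60, 4.77, 4.96 and 5.66 in the congenic pools. Its difference of 0.91 met the same threshold (adjusted p = 0.295 from limma). The differences of Ltb and Lta were not tested against each other.

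Tnfrsf13c, the receptor through which BAFF keeps mature B cells alive, met the threshold of the methods, but the strains touched. The probe set (17319588, Chr 15 from 82221744 to 82224360) had 6.0, 5.23 and 5.31 in NOD-Rag1-/- and 6.0, 6.49, 6.11 and 7.07 in the congenic pools. NOD-Rag1-/- replicate 1, the male pool, had the same value as congenic replicate 1. The log2 difference was 0.91 (standard error 0.30, adjusted p = 0.437 from limma; exact permutation p = 0.0857), or 1.88-fold with an interval of 1.15 to 3.06. Without NOD-Rag1-/- replicate 2 it was 0.76 and without replicate 3 it was 0.81, and neither met the threshold. The 2 sets of arrays gave 0.56 and 0.73.

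**Figure D3:**
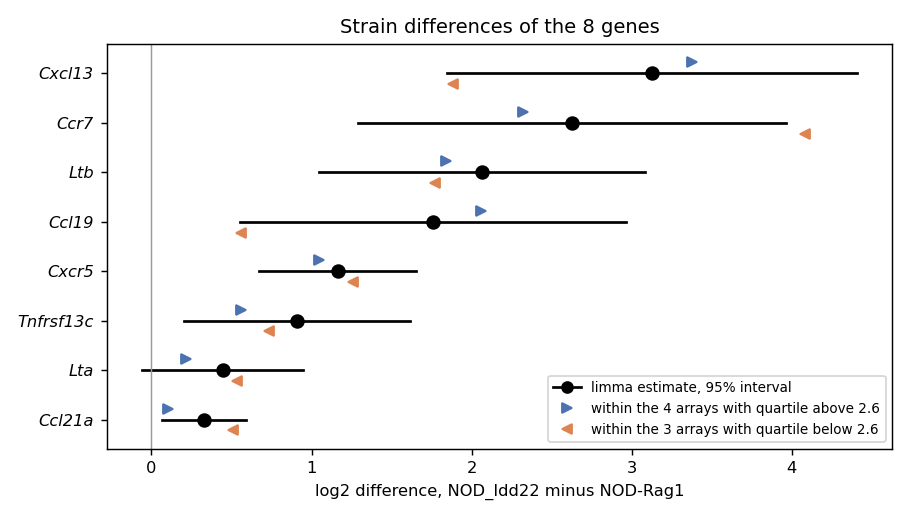
Log2 difference, congenic minus NOD-Rag1-/-, for each gene by its brightest probe set, with the limma estimate and 95% confidence interval (black) and the differences within the set of 4 arrays (blue) and of 3 arrays (orange). Only the interval of Lta includes 0, and all values within the sets are above 0, with the widest disagreement for Ccr7 (2.32 and 4.08), Cxcl13 (3.38 and 1.89) and Ccl19 (2.06 and 0.56).

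The genes fell into different orders over the congenic pools. Cxcl13, Ccl19 and Ltb were highest in replicate 2, and Cxcr5, Lta and Tnfrsf13c in replicate 4, while Ccr7 and Ccl21a were highest in replicate 1. As a measure of likeness, each gene's values were centred on its mean of 7 pools and the root mean square difference of 2 profiles was taken on the log2 scale. It was 0.42 between Ccl19 and Ltb and 0.68 between Cxcl13 and either of them. Between Ccr7 and the other 7 it was 1.01 to 1.35. Cxcr5 stood at 0.61 from Ltb, 0.68 from Ccl19 and 1.17 from Cxcl13, and Tnfrsf13c at 0.69, 0.66 and 1.22. This measure therefore did not set Cxcl13, Ccl19 and Ltb apart as a group. For genes that vary little it is small by construction, as in the 0.20 of Ccl21a and Lta. Among 25785 other symbols, the nearest to Cxcl13 were GM8989 (0.27), Gvin1 (0.32) and Plbd1 (0.35), of which Gvin1 is an interferon-inducible GTPase. Among the nearest to Ccl19 were Gm12407 (0.16), which repeats one of its probe sets, and Wdfy4 (0.25), a gene of cross-presenting dendritic cells. Nearest to Ltb were H2-Eb2 (0.24), Bank1 (0.25) and H2-Eb1 (0.26), which are MHC class II genes and a B cell scaffold. Nearest to Cxcr5 were Hvcn1 (0.10), a proton channel of leukocytes, Rasal3 (0.11) and Gimap1 (0.11), a GTPase of lymphocytes. Nearest to Ccr7 were H2-Q7 (0.37), AW112010 (0.46) and Ptpn22 (0.49), the last a phosphatase of T cell receptor signalling. Lta was nearest to Lamp5, Mir669n and Olfr1337 (each 0.11), and Tnfrsf13c to Traj13 (0.11), Dennd1c (0.12) and Gm2399 (0.15). These distances describe 7 pools of 2 strains and carry no test.

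Markers of other cells moved with these genes. B cell markers summed to log2 values of 6.80 to 7.18 in NOD-Rag1-/- and 9.89 to 11.69 in the congenic pools, with 9 of 9 measured genes higher at the study's threshold (3.81% of all probe sets were higher). Most of the congenic sum was Ighm, the immunoglobulin mu chain, at 4.2 to 4.42 in NOD-Rag1-/- and 9.61 to 11.45 in the congenic pools. The other 8 summed to 6.54 to 6.95 and 7.37 to 8.999 and had differences of 0.72 to 2.22. T cell markers summed to 7.28 to 7.87 and 8.79 to 10.01, with 9 of 10 higher. By list median, B cell markers ran 4.79, 5.95, 4.25 and 6.15 over congenic replicates 1 to 4. T cell markers ran 5.94, 5.85, 5.16 and 6.04. The B cell median was high in replicates 2 and 4, as were Cxcl13, Ccl19 and Ltb. Both the B cell and the T cell median were lowest in replicate 3, as were Cxcr5, Ccr7 and Ltb. Among B cell genes, Ms4a1 (CD20) was at 3.55, 5.95, 3.79 and 6.25 in congenic replicates 1 to 4. Ighm was at 11.27, 10.95, 9.61 and 11.45 there, higher in replicate 1 than in replicate 2. Dendritic cell and macrophage markers summed to 10.26 to 10.66 and 10.57 to 11.61, and 3 of 9 were higher. A large part of the NOD-Rag1-/- sums was Cd209a, at 9.13 to 9.53 there and 9.28 to 9.90 in the congenic pools, which overlap. The median of this list was highest in congenic replicate 1 (6.90, against 5.51 to 6.52 in replicates 2 to 4), as was Ccr7. It was lowest in replicate 3, as were the B cell and T cell medians. Only 4 of its 9 genes were highest in replicate 1, namely Itgax, Cd68, Csf1r and Itgam. Flt3 and Lyz2 were highest in replicate 2, and Zbtb46, Cd209a and Xcr1 in replicate 4. Xcr1 was lowest in replicate 1, at 3.27. Endothelial markers (8.26 to 9.41 and 9.86 to 10.78, 6 of 8 higher) and acinar markers (8.69 to 12.46 and 12.97 to 15.03, 10 of 10 higher) lay apart as well. Of the endothelial markers that were higher, Plvap (Chr 8 from 71497753 to 71511769) lies within the ALR segment of the congenic strain. Cdh5 (Chr 8 from 104101625 to 104144504) lies near its distal end. Acinar genes were highest in congenic replicate 2 for 10 of 10, and lowest by median in the male NOD-Rag1-/- pool at 4.37. Markers of lymphatic endothelium and lymph node stroma overlapped (8.43 to 8.65 and 8.47 to 9.18, 3 of 7 higher), as did beta cell markers (13.56 to 13.95 and 13.39 to 14.25, 0 of 10). The part of each of these cells in the differences was not tested.

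**Figure D4:**
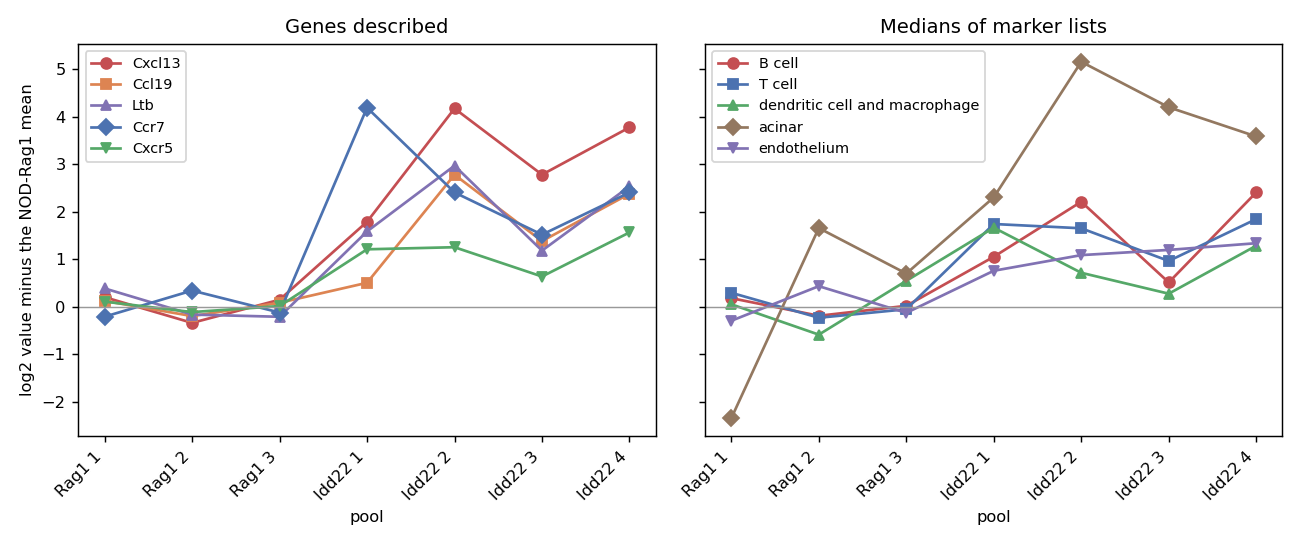
Log2 values minus the NOD-Rag1-/- mean over the 7 pools (Rag1, NOD-Rag1-/-; Idd22, congenic), for 5 of the genes (left) and for the medians of 5 marker lists (right). Ccr7 peaks in congenic replicate 1, Cxcl13, Ccl19 and Ltb peak in replicate 2, B cell markers are high in replicates 2 and 4, and acinar markers differ among pools of both strains.

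Around the 8 genes, 58 measured genes of the same circuit were described in 8 lists. None passed an adjusted p of 0.05. At the threshold of the methods 27 of the 58 were higher (3.81% of all probe sets) and 1 was lower (1.78%), with a median log2 difference of 0.51. The lists were written with earlier results of these data known, so their counts are a description. For 19 genes, up to 3 from each list, the differences within the sets of 4 and 3 arrays had the same sign for 19 and were over 1.5 times apart in size for 13, as for Podxl (2.21 and 0.56) and Cxcl12 (1.28 and 0.57).

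**Figure D5:**
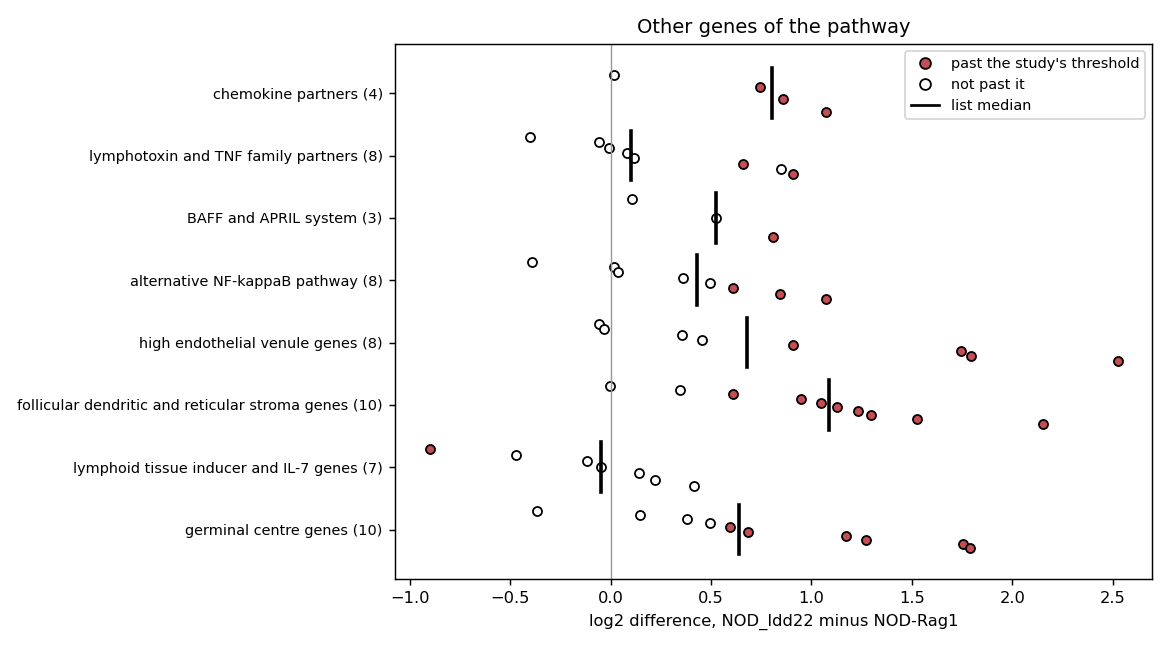
Log2 difference, congenic minus NOD-Rag1-/-, for each measured gene of the 8 lists (number of genes in brackets). Filled points met the study's threshold and the vertical bar is the median of the list. The follicular dendritic and reticular stroma list has the highest median, 1.09, and the lymphoid tissue inducer and IL-7 list lies about 0, with its median at -0.05.

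Among chemokine partners, 3 of 4 measured genes were higher. Cxcl12, a stromal chemokine that retains plasma cells and progenitors, read 4.45, 4.31 and 4.72 in NOD-Rag1-/- and 5.09, 5.84, 5.51 and 5.83 in the congenic pools, a log2 difference of 1.07 (adjusted p = 0.158 from limma). Its receptor Cxcr4 differed by 0.86 and was highest in congenic replicate 1 at 7.74, the pool that was highest for Ccr7. Among the TNF family partners, Tnfrsf14 (HVEM, a receptor of LIGHT and lymphotoxin alpha) differed by 0.66 and Tnf by 0.91, and 2 of 8 met the threshold. Ltbr, the receptor of the lymphotoxin heterotrimer, did not pass (6.55, 7.01 and 6.86 in NOD-Rag1-/- against 7.08, 6.03, 5.94 and 6.57). Of the BAFF system, Tnfsf13b, which encodes BAFF, was higher by 0.81, with values of 4.11, 3.86 and 4.21 against 4.49, 5.42, 4.42 and 5.17, and Tnfrsf17, a receptor of plasma cells, was at 2.11 to 2.53 in all pools.

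In the alternative NF-kappaB pathway, which relays the lymphotoxin beta receptor signal, 3 of 8 genes were higher at the threshold of the methods. Relb and Nfkb2 encode its 2 transcription factor subunits. Relb read 5.36, 5.17 and 5.25 in NOD-Rag1-/- and 6.03, 5.76, 5.69 and 5.99 in the congenic pools, with a difference of 0.61 (adjusted p = 0.149 from limma). Nfkb2 differed by 1.07 (adjusted p = 0.196 from limma), with congenic replicate 3 at 6.25 and the other congenic pools at 7.02 to 7.09. Birc3, an ubiquitin ligase of the pathway and an NF-kappaB target, differed by 0.84. Map3k14, which encodes the kinase NIK, and Chuk, Traf2, Traf3 and Birc2 did not meet the threshold. Of these only Chuk had a lower mean in the congenic pools, with a log2 difference of -0.39 (unadjusted p = 0.0149 and adjusted p = 0.411 from limma).

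High endothelial venules are the vessels through which lymphocytes enter lymph nodes, and 4 of 8 of their genes were higher. Glycam1, a mucin of these vessels, was at 4.18, 3.62 and 3.37 in NOD-Rag1-/- and at 4.87, 7.94, 4.87 and 7.32 in congenic replicates 1 to 4. Congenic replicates 2 and 4 stood above replicates 1 and 3, the pools in which Cxcl13 and Ltb were also lower, and the difference was 2.53 (2.53 and 1.37 within the sets of 4 and 3 arrays, adjusted p = 0.423 from limma). Madcam1, the addressin of gut-associated lymphoid tissue, differed by 0.91, and Cd34 and Podxl, which general endothelium also expresses, by 1.80 and 1.75. Chst2 (0.45), Fut7 (0.35), Chst4 (-0.03) and Fut4 (-0.06) did not meet the threshold of the methods. Of the follicular dendritic and reticular stroma list, 8 of 10 were higher, among them Mfge8 (1.13), Vcam1 (2.15) and Icam1 (1.05). Clu (0.35) and Prnp (-0.002) did not meet the threshold, and the strains overlapped for both. Cr2 (CD21), a complement receptor of follicular dendritic cells and of B cells, was at 2.38, 2.59 and 2.39 in NOD-Rag1-/- and 3.13, 4.39, 3.14 and 5.25 in the congenic pools.

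Germinal centre genes gave 6 of 10 higher. Il21r, the IL-21 receptor of B and T cells, differed by 1.79 (adjusted p = 0.122 from limma), and Icos and Pdcd1, surface proteins of follicular helper and activated T cells, by 1.17 and 1.76. Bcl6, the transcription factor of germinal centre cells, was at 5.78 to 6.34 in NOD-Rag1-/- and 4.78 to 6.77 in the congenic pools, which overlap. Of the lymphoid tissue inducer and IL-7 list, 0 of 7 were higher at the threshold and Id2 was lower, at 8.15, 8.56 and 8.39 in NOD-Rag1-/- and 8.45, 7.26, 6.96 and 7.21 in the congenic pools. Kit, a growth factor receptor of progenitor cells, had a log2 difference of 0.42 (adjusted p = 0.499 from limma). Il7, the cytokine of lymphocyte survival, was at 2.43 to 2.97 in all pools.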

How the data were processed

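Islet RNA of 7 pools was measured on Affymetrix arrays. The authors deposited log2 values made with RMA, of a version not stated, which corrects background, normalizes quantiles and summarizes probes. Annotation came, through probe set names, from a second deposited table, which also holds log2 fold changes and p-values of the authors' own comparison, not used here. Its positions, in bases per the file headers with no build named, overlapped the RefSeq GRCm38.p6 gene for 99% of 21999 symbols. Probe sets without annotation (121) were left out, and 34351 were tested with limma 3.58.1 in R 4.3.3 (lmFit, eBayes, no block, Benjamini-Hochberg adjustment), a fit tested on simulated data. Single genes were also tested by exact permutation of the pools. The brightest probe set stood for a symbol, with ties going to a placed chromosome and the lowest start. The genes named are the 8, up to 3 of each list by smallest p among those that do not overlap and the 3 nearest to each gene that spans over 1 log2 unit, and any other was picked with its values in view. Some genes that this rule names are not reported here. The 8 genes, the lists and the tests were chosen with earlier results of these data known. Other settings were another normalization, median centring, a filter on dim probe sets, other variance models, the methods' t-test, leaving out pools, a replicate block, a block for the sets of arrays, other thresholds and other probe sets. Plots were drawn with matplotlib 3.10.9 in Python 3.11.15. Precision is limited by how few arrays there are.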

Additional observations from a re-analysis of the deposited data

Results flagged for a closer look

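In the congenic pools 5 probe sets had a pool far from the rest, by the gap to its nearest neighbour as a share of the range of the 4 values. Of 66 probe sets examined chance alone would give about 1 in 20. The share was 0.883 for 2 probe sets of Ccl21a with the same values, which were lowest in congenic replicate 3 (4.75, against 4.98 to 5.01). It was 0.923 for Nfkb2, lowest in replicate 3 at 6.25, 0.890 for Cd34, lowest in replicate 1 at 6.23, and 0.946 for Podxl, lowest in replicate 1 at 4.74.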

How the results depend on the processing

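The count of 6 genes past the study's threshold was 6 after median centring, quantile normalization or a filter on dim probe sets, by both t-tests, in the trend and robust fit and with array set as a block, 7 with array weights and 5 to 7 when single pools were left out. The count by adjusted p was 1 with array weights (Cxcl13) and 0 to 1 with single pools left out. Without the first pool of each strain, chosen after seeing the data, the counts were 0 and 6. With a replicate block, in which congenic replicate 4 has no partner and adds nothing to the difference, 0 passed by adjusted p and 5 met the study's threshold, and Tnfrsf13c lost it at 0.69. The numbers share no source in the labels, and the deviations of same-numbered pools correlated at -0.38, -0.14 and -0.11, so they were not taken as pairs. The differences of the 8 genes kept their sign in each setting that reads the brightest probe set, except that Lta has no value with the filter on dim probe sets, which removed it. The value of Ccl19 reversed to -0.054 with probe set 17424452, and the cause was not tested. Over all probe sets the counts were 54 and 1920 in the fit reported, 97 by adjusted p with the brighter probe sets only, 233 and 3560 with array weights, 1 and 1248 by the methods' t-test, 0 and 1204 with unequal variances, 0 and 1148 with the replicate block, 31 by adjusted p with array set as a block, 1 and 4438 without the first pools, and 10 to 258 and 1264 to 3299 when single pools were left out.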
